A study of Mus musculus with 2 samples.

Results

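The kinesin superfamily, the motor proteins that carry cargo along microtubules or remodel them, was examined in RNA from mouse left-right organizer (LRO) cells and from the cells around them. Members were the genes whose symbol was Kif with a number, Kifc with a number, or Kifap3 in the deposited table. This gave 40 of 17586 genes and 61 of 27606 transcripts. The LRO is the ciliated pit at the midline of the early embryo in which motile cilia drive a leftward flow. Both libraries came from embryos of 0 to 4 somites, labelled as embryonic day 8, that carried the FOXJ1-EGFP transgene on a C57BL/6 and 129 SvEv background. No gene was deleted and no agent was given. The human FOXJ1 promoter drives EGFP in this line, so EGFP marks cells that use this promoter, and level differences of Foxj1 itself only check the sort. Tissue was micro-dissected before the sort. EGFP-positive cells pooled from 6 embryos made the LRO library, and EGFP-negative cells from a separate pool of embryos of the same stages made the non-LRO library. The study's methods give fewer sorted cells and far less RNA for the LRO library. The part of this difference in the values below was not tested. There was 1 library per group, so no difference here has a replicate check, and every interval below covers the counting error of reads and nothing else.

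Kinesins share a motor domain that turns ATP hydrolysis into steps on microtubules, and their other domains decide where they work. Heterotrimeric kinesin-2 carries intraflagellar transport trains toward the ciliary tip, and mouse embryos without its motor subunits lack nodal cilia and randomize left-right asymmetry. Further kinesins sit in cilia without carrying trains, mitotic kinesins build and resolve the spindle, and the kinesin-1 and kinesin-3 families move organelles and vesicles. Members were therefore read in 5 classes, which were kinesin-2 (4 measured genes), other ciliary kinesins (6), mitotic kinesins (13), transport kinesins (11) and the remaining kinesins (6).

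The non-LRO library had a total of 24407299 reads behind its normalized values and the LRO library 30277870, of which 13418798 and 16672852 were assigned to genes. Ratios below are LRO over non-LRO reads after scaling to those totals, with an exact conditional binomial 95% interval. Genes with the whole interval above 2 were called higher, and those with the whole interval below 0.5 lower. The sort markers followed the labels, with 7 of 7 LRO and axial mesoderm markers called higher, among them Foxj1 with 194 reads in the LRO and 4 in the non-LRO library and Noto with 307 and 0. Other cell types also differed between the libraries. The summed level of 3 erythroid markers was 1.16 RPKM in the LRO and 2398 RPKM in the non-LRO library, that of 4 extraembryonic endoderm markers 4.20 and 54.6, and that of 4 endothelial markers 5.55 and 23.8. All 11 of these markers were called lower in the LRO library, with Afp, Apoa2 and Pecam1 at 0 reads there. The summed level of 4 cardiac markers was 60.7 RPKM against 24.4, with 3 of 4 called higher, and that of 3 neural crest markers was 15.2 against 1.13, with 3 of 3 called higher. None of 3 neuroectoderm markers was called. These lists move with every kinesin value below, and their part in those values was not tested. In bulk RNA, fewer cells of a type and less RNA per cell cannot be told apart.

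All 40 kinesin genes had reads in both libraries. Of these, 3 were called higher in the LRO library (Kif19a, Kif6 and Kif3c), against 3.97% of all genes, and 1 was called lower (Kif5a), against 12.3% of all genes. With edgeR TMM factors these shares of all genes were 6.45% and 7.89%. The 3 higher genes all belong to the ciliary classes, 2 to the 6 other ciliary kinesins and 1 to kinesin-2. The other 36 genes were called neither way. The median log2 ratio of the 40 genes was -0.37, beside -0.42 for all genes and -0.31 for the 9894 genes that each library covered with 50 or more reads. Most genes of the table thus had a ratio under 1, and a ratio slightly under 1 is the middle of the table rather than a low value. The kinesin medians differed by class, at 1.23 for other ciliary kinesins, -0.13 for kinesin-2, -0.13 for transport kinesins, 0.08 for the remaining kinesins and -0.45 for mitotic kinesins. In the interval plot 5 of the 10 genes of both ciliary classes lie right of 1, and the mitotic genes form a narrow column left of 1.

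**Figure D1:**
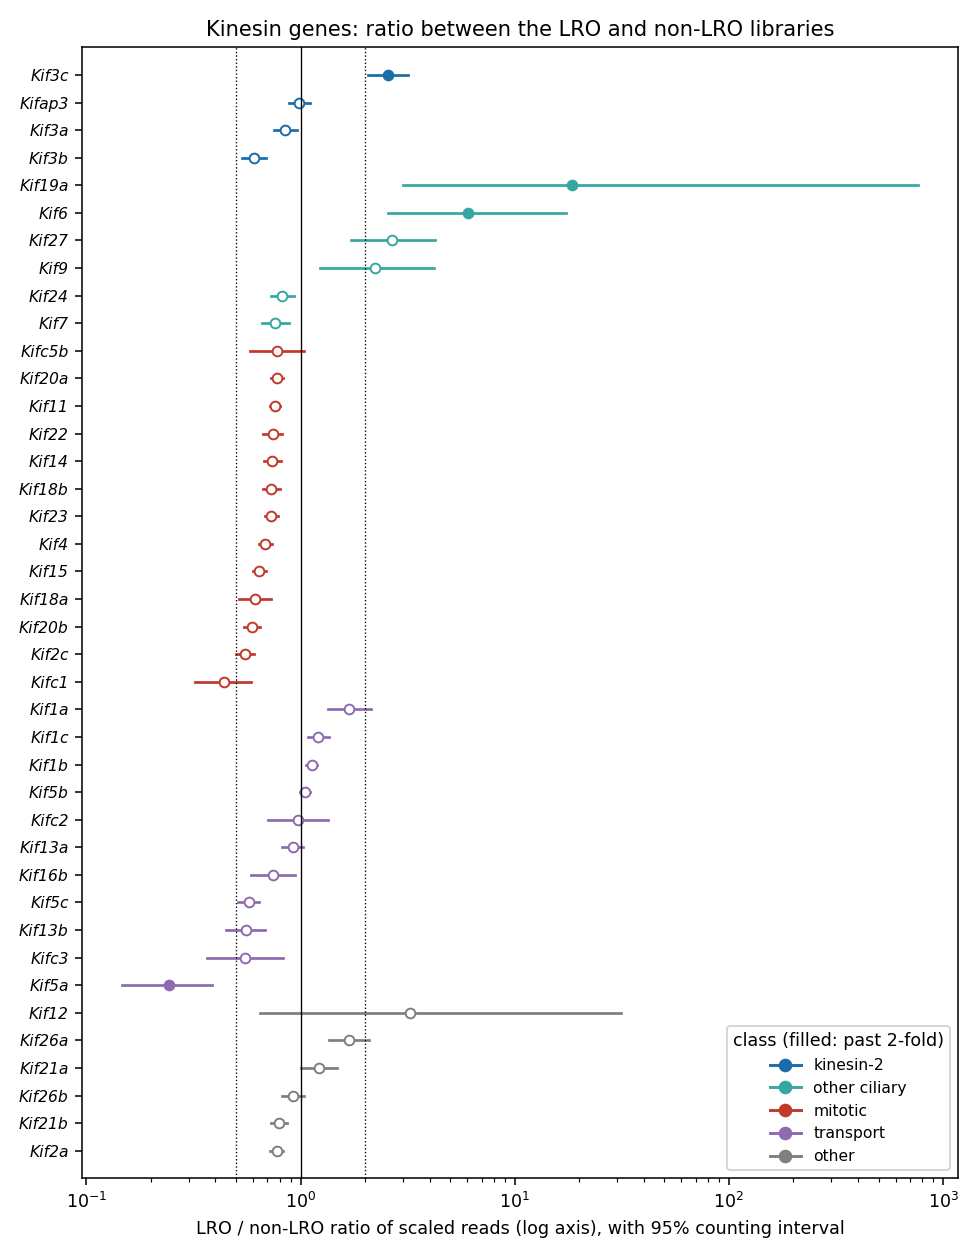
Ratio of scaled reads, LRO over non-LRO, for the 40 kinesin genes on a log axis, by class, with 95% counting intervals (1 library per group). Filled points are the 4 called genes; Kif19a at 18.5, Kif6 at 6.05 and Kif3c at 2.55 lie with their intervals above the dotted line at 2, and Kif5a at 0.242 below the dotted line at 0.5.

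Levels per transcript length, in RPKM (reads divided by transcript length and library total), ranged over the 40 genes from 0.117 to 18.6 RPKM in the LRO library and from 0.0119 to 24.5 RPKM in the non-LRO library. Kif11 was the highest kinesin in both. Of the 6 genes with a ratio above 2, Kif19a, Kif6, Kif12, Kif27 and Kif9 were below 1 RPKM in both libraries, and Kif3c was at 1.74 RPKM in the LRO library.

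**Figure D2:**
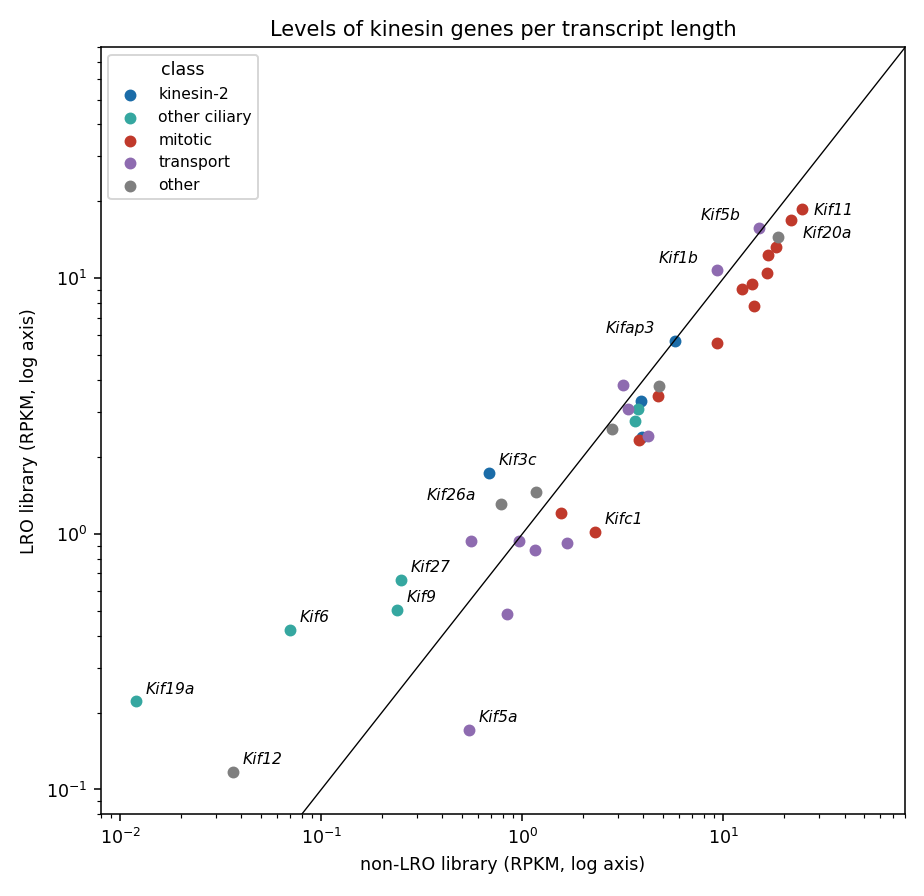
RPKM of each kinesin gene in the non-LRO library (x axis) and the LRO library (y axis), both on log axes, 1 point per gene and 1 library per group; the line marks equal levels. Mitotic kinesins hold most of the top end and all lie below the line, with Kif11 at 24.5 and 18.6 RPKM, while Kif19a, Kif6, Kif27 and Kif9 lie above the line at under 1 RPKM.

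Kinesin-2 was read by its motors first. Kif3a, the motor subunit shared by the heterotrimers, had 546 reads in the LRO library (3.31 RPKM) and 519 in the non-LRO library (3.90 RPKM), a ratio of 0.848 (0.751 to 0.958). Kif3b, its usual partner in intraflagellar transport, had 408 reads (2.39 RPKM) and 542 (3.94 RPKM), a ratio of 0.607 (0.532 to 0.691). Neither motor of the transport trains was called, and the value of Kif3a lay on the other side of 1, at 1.05, when well-read genes were set to a median ratio of 1, while Kif3b stayed below it at 0.750. Kif3c, the alternative partner of Kif3a known from neurons, had 360 reads (1.74 RPKM) and 114 (0.683 RPKM), a ratio of 2.55 (2.06 to 3.17), and was called higher. Kifap3, the accessory subunit that links the motor pair to cargo, had 682 reads (5.68 RPKM) and 557 (5.77 RPKM), a ratio of 0.987 (0.881 to 1.11), an interval that includes 1 at this scaling, while the value was 1.22 with well-read genes set to a median ratio of 1. Kif3c was the only one of the 4 genes higher in the LRO library and was the lowest of the 4 per length in both libraries. The lower bound of the Kif3c interval lies close to 2, and at a 99% interval the call is lost. Its span also overlaps that of 1110002L01Rik, a gene on the opposite strand, over 2613 bases. That gene had 222 reads in the LRO and 286 in the non-LRO library, and reads of the pair cannot be assigned by strand because the library kit kept none. Kif17, the homodimeric kinesin-2, is not listed in the deposited table.

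Of the 6 other ciliary kinesins, 4 had ratios above 2, and they are given first; this order follows their values. Kif19a, which trims microtubules at the tips of motile cilia and so limits their length, had 23 reads in the LRO library (0.221 RPKM) and 1 in the non-LRO library (0.0119 RPKM), a ratio of 18.5 (3.01 to 764). Kif6, needed for ependymal motile cilia in the mouse, had 45 reads (0.421 RPKM) and 6 (0.0697 RPKM), a ratio of 6.05 (2.57 to 17.3). Both were called higher, on few reads in the non-LRO library. Kif27, which acts in building the central pair of motile axonemes, had 89 reads (0.659 RPKM) and 27 (0.248 RPKM), a ratio of 2.66 (1.71 to 4.25). Kif9, a motor of the central apparatus of motile cilia and sperm tails, had 44 reads (0.504 RPKM) and 16 (0.239 RPKM), a ratio of 2.22 (1.23 to 4.21). Neither was called at a bound of 2, but both intervals lie above 1. Scaling by trimmed means or by the median of well-read genes brought the Kif27 interval above 2.

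The other 2 genes of the class did not share this pattern. Kif7, the kinesin that organizes the ciliary tip and relays Hedgehog signals, had 378 reads (2.76 RPKM) and 400 (3.62 RPKM), a ratio of 0.762 (0.660 to 0.879). Kif24, a microtubule-depolymerizing kinesin of the mother centriole that holds back cilium assembly, had 522 reads (3.08 RPKM) and 514 (3.76 RPKM), a ratio of 0.819 (0.723 to 0.926). Neither was called, and with well-read genes set to a median ratio of 1 the values were 0.942 for Kif7 and 1.01 for Kif24. Both were better read and higher per length than the 4 genes above. Summed over the class, the reads were 1101 and 964, a ratio of 0.921 (0.844 to 1.005), since Kif7 and Kif24 hold most of them.

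Promoters of the ciliary members were searched for the RFX core GTTGCC and the forkhead motif TGTTTAC, on both strands, in windows from 250 bases before to 50 bases after the annotated start (RefSeq, GRCm38.p6, 32 of 40 members matched). RFX factors are known activators of ciliary genes through the X-box, and FOXJ1 is a forkhead factor. The RFX core was in 2 of 4 kinesin-2 windows (Kif3a and Kif3c) and 2 of 5 other ciliary genes (Kif9 and Kif24), against 14.1% of 27025 genes with a window and 12.5% of all 32851 windows. It was also in 2 of 12 mitotic, 2 of 6 transport and 1 of 5 remaining genes, which makes 9 of 32 kinesin genes. The forkhead motif was in 0 of 32 kinesin genes, against 4.05% of all genes. Among other ciliary genes Kif19a had no window, and the windows of Kif6, Kif27 and Kif7 held neither motif. Those of Kif3c and Kif9, members with a ratio above 2, are shown from 200 and 100 bases before the start to 30 bases after it, with the RFX core in capitals; for Kif9 the later of its 2 annotated starts was used.
Kif3c promoter, chr12:3364932-3365161, plus strand: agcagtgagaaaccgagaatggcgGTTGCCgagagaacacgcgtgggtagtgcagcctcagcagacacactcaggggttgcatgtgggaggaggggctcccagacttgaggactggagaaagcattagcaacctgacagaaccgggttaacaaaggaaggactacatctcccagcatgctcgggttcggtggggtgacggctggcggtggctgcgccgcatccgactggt
Kif9 promoter, chr9:110476894-110477023, plus strand: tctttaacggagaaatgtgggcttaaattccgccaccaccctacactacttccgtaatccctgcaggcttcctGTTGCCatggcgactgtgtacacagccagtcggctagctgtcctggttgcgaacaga
The core lies 176 bases before the start in Kif3c and 27 bases before it in Kif9. A match describes letters in a window, and its part in the levels was not tested.

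The mitotic kinesins lay close together, near the middle of the table. All 13 measured genes had a ratio below 1, from 0.437 for Kifc1 to 0.774 for Kifc5b. These 2 are near-identical copies, so both ends of the range are uncertain. None was called either way, against 3.97% of all genes called higher and 12.3% lower. All 13 also lay below the median of well-read genes, and all 13 stayed below 1 under each of the 4 scalings compared. Their summed level was 112 RPKM in the LRO and 160 RPKM in the non-LRO library, and their summed reads were 13337 and 15378, a ratio of 0.699 (0.683 to 0.716). Kif11, the tetrameric motor that pushes spindle poles apart, had 2720 reads (18.6 RPKM) and 2880 (24.5 RPKM), a ratio of 0.761 (0.722 to 0.803). Kif20a, which brings the chromosomal passenger complex to the central spindle, had 1777 reads (16.8 RPKM) and 1855 (21.7 RPKM), a ratio of 0.772 (0.723 to 0.825). Kif15, which keeps the spindle bipolar beside Kif11, had 1536 reads (10.5 RPKM) and 1932 (16.4 RPKM), a ratio of 0.641 (0.599 to 0.686). These 3 best-read mitotic members lay within 2-fold of 1, and the log2 ratios of Kif11 and Kif20a, at -0.39 and -0.37, were near the all-gene median of -0.42. Kif20a overlaps the spans of Cdc23 and Brd8 on the opposite strand, over 1596 and 241 bases, so part of its reads may be theirs.

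Among the other mitotic members, Kif22, Kif14, Kif18b, Kif23, Kif4, Kif18a and Kif20b had ratios from 0.595 to 0.741. The lowest ratios, named after their values were seen, were those of Kif2c and Kifc1. Kif2c, the kinesin that removes tubulin from microtubule ends at centromeres, had 667 reads (7.79 RPKM) and 976 (14.1 RPKM), a ratio of 0.551 (0.498 to 0.609). Kifc1, a minus-end motor that focuses spindle poles, had 71 reads (1.02 RPKM) and 131 (2.31 RPKM), a ratio of 0.437 (0.323 to 0.588). Kifc5b, a near-identical copy of Kifc1, had 96 and 100 reads, and because reads of such copies were split between them both values are uncertain. Kif2b, a further mitotic kinesin, is not listed in the deposited table.

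Genes that work with or beside the mitotic kinesins had medians near those of the mitotic kinesins and of all genes. Cenpe, the kinetochore kinesin without a Kif symbol, had 2256 reads and 2709, a ratio of 0.671 (0.635 to 0.710). Of 17 spindle and midbody partners, 0 were called higher and 1 lower, against 3.97% and 12.3% of all genes, with a median log2 ratio of -0.39 beside -0.42 for all genes. The lower one was Racgap1, the partner of Kif23 in centralspindlin, with 806 reads and 1425 and a ratio of 0.456 (0.418 to 0.497), a call that is lost under the scalings that raise all ratios. Other partners ran the other way without being called, as Plk1, the mitotic kinase, had 3619 reads and 2366, a ratio of 1.23 (1.17 to 1.30). Of 8 proliferation markers none was called, and their median was -0.47. The share of proliferating cells was not measured, so the part of cell cycling in these levels was not tested.

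What the mitotic kinesins shared beyond their ratios was a promoter motif. The cell cycle genes homology region, or CHR, is the element TTTGAA, known as a binding site of the MuvB complexes that time mitotic genes. It was searched as TTTGAA on either strand, which reads TTCAAA on the other. It was present in 11 of 12 mitotic kinesin windows (91.7%), against 20.2% of all genes and 17.9% of all windows. It was in 0 of 4 kinesin-2 genes, 1 of 5 other ciliary genes (Kif27), 1 of 6 transport genes (Kif1a) and 1 of 5 remaining genes (Kif26b). Kif18a was the mitotic gene without it. Kif2a, a kinesin of spindles and axons placed with the remaining kinesins, had no CHR in either of its 2 windows. The mitotic share thus depends on the class lists, which were chosen with earlier results of these data known. In 9 of the 12 the element began within 30 bases of the start, against 3.72% of all genes and 1 of the 20 kinesin genes of the other classes; this distance was chosen after the positions were seen. The windows of Kifc1 and Kifc5b are not independent, since the genes are near copies, and the Kif2c window lies at the start of its minor transcript. The CCAAT box, the letters CCAAT on either strand, which often stands before a CHR, was in 8 of 12 mitotic genes, 3 of 4 kinesin-2 genes, 3 of 5 other ciliary genes, 1 of 6 transport genes and 1 of 5 remaining genes, against 41.1% of all genes, so it did not set the mitotic class apart from the ciliary ones. The CHR-bearing stretches of 7 mitotic kinesins from 70 bases before to 30 bases after the start follow, as RefSeq gives them on GRCm38.p6, with the CHR in capitals.
Kif11 promoter, chr19:37376312-37376411, plus strand: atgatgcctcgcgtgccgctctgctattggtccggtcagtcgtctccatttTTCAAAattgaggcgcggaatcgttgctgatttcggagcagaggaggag
Kif15 promoter, chr9:122951011-122951110, plus strand: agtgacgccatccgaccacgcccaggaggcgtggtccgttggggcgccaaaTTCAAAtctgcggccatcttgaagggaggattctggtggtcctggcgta
Kif18b promoter, chr11:102925095-102925194, minus strand: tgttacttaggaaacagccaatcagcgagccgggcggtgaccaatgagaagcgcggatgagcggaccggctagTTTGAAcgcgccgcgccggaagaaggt
Kif22 promoter, chr7:127042391-127042490, minus strand: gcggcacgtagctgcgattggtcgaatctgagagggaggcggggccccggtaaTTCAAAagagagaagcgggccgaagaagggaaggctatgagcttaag
Kif23 promoter, chr9:61946770-61946869, minus strand: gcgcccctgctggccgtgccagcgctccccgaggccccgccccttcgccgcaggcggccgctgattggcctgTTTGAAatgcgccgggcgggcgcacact
Kif4 promoter, chrX:100625995-100626094, plus strand: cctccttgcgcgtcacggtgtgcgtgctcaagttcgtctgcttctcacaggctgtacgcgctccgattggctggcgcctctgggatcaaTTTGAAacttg
Kifc1 promoter, chr17:33890604-33890703, minus strand: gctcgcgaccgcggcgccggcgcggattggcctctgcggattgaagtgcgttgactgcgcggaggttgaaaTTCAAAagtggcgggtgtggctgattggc
In Kif11 and Kif15 the element begins 19 bases before the start, in Kif22 17 bases before it, and in Kifc1, Kif23, Kif18b and Kif4 1, 2, 3 and 19 bases after it. The ratios of these 7 genes ran from 0.437 for Kifc1, an uncertain value because its reads were split with its near copy Kifc5b, to 0.761 for Kif11. This is nearly the whole range of the mitotic class.

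**Figure D3:**
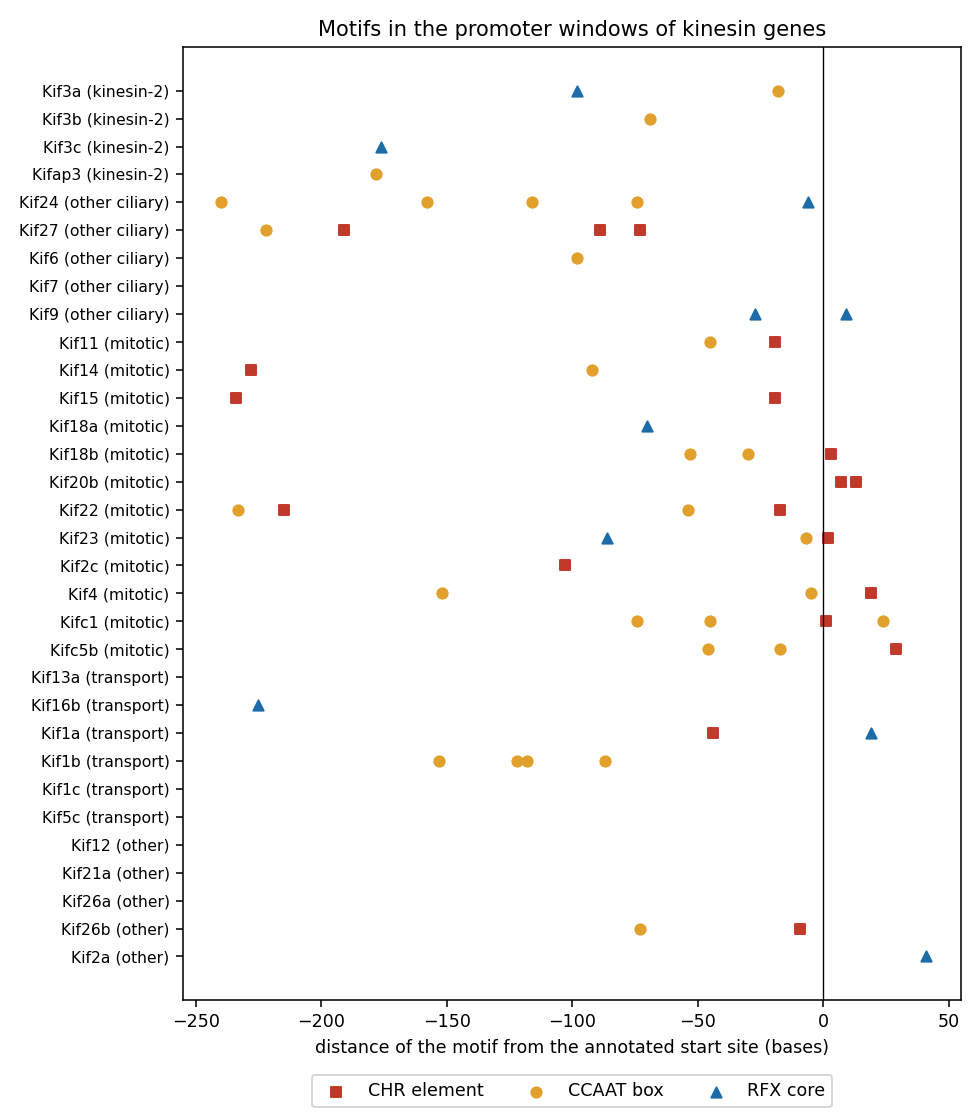
Position of the CHR element, the CCAAT box and the RFX core on either strand in the promoter windows of 32 kinesin genes; x axis, bases from the annotated start (a gene with 2 starts is drawn from each). CHR squares lie at or near the start line in most mitotic rows, 9 of 12 within 30 bases, and in 1 of the 20 other rows.

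The transport kinesins divided into genes with ratios near or above 1 and genes well below it. Kif5b, the ubiquitous heavy chain of kinesin-1, had 2868 reads in the LRO library (15.7 RPKM) and 2213 in the non-LRO library (15.04 RPKM), a ratio of 1.04 (0.988 to 1.10). Kif1b, a carrier of mitochondria and vesicles, had 2813 reads (10.7 RPKM) and 2017 (9.27 RPKM), a ratio of 1.12 (1.06 to 1.19). Kif1c, a carrier of vesicles toward the cell edge, had 782 reads (3.82 RPKM) and 521 (3.16 RPKM), a ratio of 1.21 (1.08 to 1.35). None of these 3 well-read carriers was called, though all lay above the median of well-read genes. The kinesin-1 heavy chains enriched in neurons had ratios under 1. Kif5a had 24 reads (0.171 RPKM) and 80 (0.545 RPKM), a ratio of 0.242 (0.147 to 0.386), and was called lower. Kif5c had 499 reads (2.41 RPKM) and 704 (4.22 RPKM), a ratio of 0.571 (0.508 to 0.642), which was not called and is given here because it completes the family.

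The other transport members were Kif1a, Kifc2, Kif13a, Kif16b, Kif13b and Kifc3. Their ratios ran from 0.550 for Kifc3 to 1.68 (1.34 to 2.13) for Kif1a, the carrier of synaptic vesicle precursors, and none was called. Summed over the class, the reads were 8288 and 6726, a ratio of 0.993 (0.962 to 1.03). Kinesin light chains and cargo adaptors were also read. Of 10 measured genes 0 were called higher and 3 lower, against 3.97% and 12.3% of all genes. Their median log2 ratio was -0.75 beside -0.42 for all genes. The 3 were Klc2, a light chain (245 and 480 reads, ratio 0.411, 0.351 to 0.481), and the scaffolds Mapk8ip2 (41 and 134 reads, 0.247, 0.169 to 0.352) and Mapk8ip3 (369 and 970 reads, 0.307, 0.271 to 0.346). Under the scalings that raise all ratios, Klc2 is no longer called. Mapk8ip1, a scaffold of the same family, ran the other way with 279 reads and 115, a ratio of 1.96 (1.57 to 2.45), and was not called.

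The minus-end motors that return kinesin cargo were read beside them. Of 14 genes of cytoplasmic dynein 1 and dynactin none was called, with a median log2 ratio of -0.11. Of 5 genes of cytoplasmic dynein 2, the return motor of intraflagellar transport, none was called, with a median of -0.30. Beside these, 3.97% of all genes were called higher and 12.3% lower, and the all-gene median was -0.42. Dync2h1, the heavy chain of dynein 2, had 1115 reads and 1109, a ratio of 0.810 (0.745 to 0.882), while its light intermediate chain Dync2li1 had 90 reads and 34, a ratio of 2.13 (1.42 to 3.27), and Tctex1d2, a light chain, 28 and 65, a ratio of 0.347 (0.215 to 0.549). The dynein 2 genes thus lay on both sides of 1.

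Among the remaining kinesins none was called, against 3.97% of all genes called higher and 12.3% lower. Kif2a, a depolymerizing kinesin of spindles and axons, had 1671 reads (14.5 RPKM) and 1741 (18.6 RPKM), a ratio of 0.774 (0.723 to 0.828). Kif21b, a brake on microtubule growth, had 1043 reads (3.78 RPKM) and 1061 (4.77 RPKM), a ratio of 0.792 (0.727 to 0.864). Kif26b, an atypical kinesin of cell adhesion and Wnt5a signalling, had 577 reads (2.57 RPKM) and 504 (2.79 RPKM), a ratio of 0.923 (0.817 to 1.04). All 3 stayed within a factor of 2, for Kif26b the interval included 1, and with well-read genes set to a median ratio of 1 the value of Kif26b was 1.14. Kif21a, Kif26a and Kif12 had ratios of 1.21, 1.68 (1.36 to 2.08) and 3.22 (0.643 to 31.2), the last on 8 reads and 2. Kif25, Kif28 and Kif4b are not listed in the deposited table.

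Shares within the family do not depend on how the libraries are scaled. Kinesin genes took 28567 reads in the LRO library (0.171% of assigned reads) and 28420 in the non-LRO library (0.212%). Mitotic kinesins held 46.7% of kinesin reads in the LRO library (46.1 to 47.3, exact binomial 95% interval) and 54.1% in the non-LRO library (53.5 to 54.7). Transport kinesins held 29.0% (28.5 to 29.5) and 23.7% (23.2 to 24.2). Kinesin-2 held 6.99% and 6.09%, other ciliary kinesins 3.85% and 3.39%, and the remaining kinesins 13.5% and 12.7%. Per transcript length, mitotic kinesins held 56.9% and 63.6% of the summed kinesin RPKM. The mix thus leaned from mitotic toward transport reads in the LRO library, by more than counting error, which is too narrow a measure for amplified reads. The lean rested mostly on Kif5b (2868 reads in the LRO and 2213 in the non-LRO library) and Kif1b (2813 and 2017), which held most of the transport reads. Of the 11 transport genes 4 had a ratio above 1 and 7 below it. The mitotic class stayed the largest in both libraries.

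**Figure D4:**
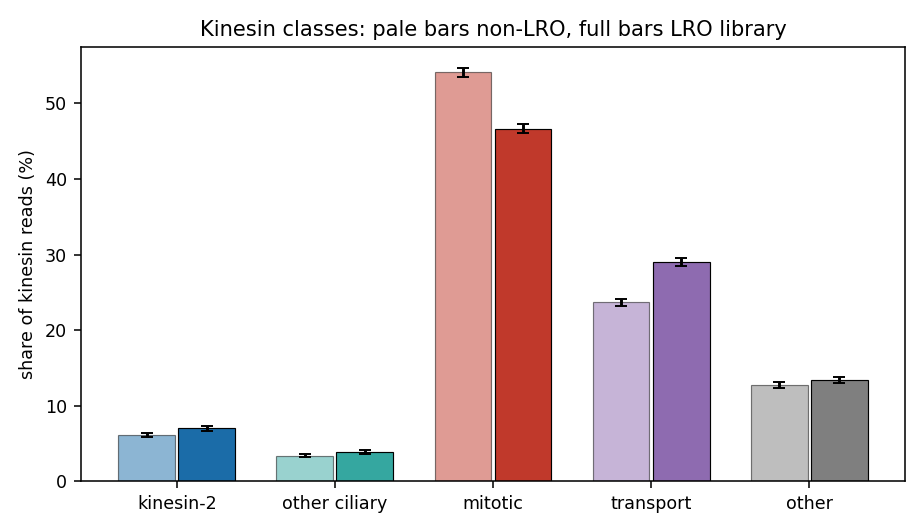
Share of all kinesin reads (y axis, percent) held by each class (x axis) in the non-LRO (pale bars) and LRO (full bars) library, with exact binomial 95% intervals that cover counting error only. The mitotic bars stand at 54.1% and 46.7% and the transport bars at 23.7% and 29.0%, with no overlap of intervals in either pair.

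Gene sums hid differences between transcripts. Of the 40 genes, 13 had several transcripts in the table, and of all 61 transcripts 5 were called higher and 5 lower by the rule used for genes, against 5.11% and 13.9% of all 27606 transcripts. The transcripts below were picked after their values were seen, and how reads were split among transcripts of a gene rests on the authors' software. In 1 gene, Kif21a, a kinesin that limits microtubule growth and is mutated in congenital fibrosis of the eye muscles in humans, 1 transcript was called higher and 1 lower. Its 6146-base transcript NM_016705 had 240 reads in the LRO and 73.0 in the non-LRO library, a ratio of 2.65 (2.03 to 3.49), and made up 88.7% and 40.6% of the gene's reads. The 6443-base transcript NM_001109040 had 17.2 reads and 85.3, a 6.203-fold lower value (3.66 to 11.1), and made up 6.35% and 47.4%. The 6146-base form thus dominated in the LRO library, while these 2 forms were near equal in the non-LRO library. The gene sum moved only to 1.21 (1.001 to 1.47). The gene has 4 listed transcripts. The others, NM_001109042 (6128 bases) and NM_001109041 (6311 bases), held 3.97% and 0.938% of its reads in the LRO library. In the non-LRO library they held 8.49% and 3.56%, and neither was called. The 6443-base form differs from the 6146-base form by 4 coding exons, numbered in its 37 exons on GRCm38 and printed in full because they are the letters on which the difference rests.
Kif21a exon 12, chr15:90976471-90976509, minus strand: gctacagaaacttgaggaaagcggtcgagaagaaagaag
Kif21a exon 24, chr15:90964975-90964995, minus strand: atctagatggcgccccaccag
Kif21a exon 28, chr15:90952711-90952818, minus strand: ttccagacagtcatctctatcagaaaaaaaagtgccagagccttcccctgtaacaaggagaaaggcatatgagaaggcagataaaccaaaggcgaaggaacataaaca
Kif21a exon 29, chr15:90951246-90951374, minus strand: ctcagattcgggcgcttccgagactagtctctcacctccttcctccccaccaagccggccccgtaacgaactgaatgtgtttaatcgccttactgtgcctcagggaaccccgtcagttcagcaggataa
These 4 exons are 39, 21, 108 and 129 bases long, each a multiple of 3, so their loss keeps the reading frame.

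Kifap3 showed a split of the same kind. Its transcript NM_010629 had 261 reads in the LRO and 82.3 in the non-LRO library, a ratio of 2.57 (1.99 to 3.33), while NM_001305643 had 421 and 475, a ratio of 0.714 (0.625 to 0.816). The former made up 38.3% of the gene's reads in the LRO and 14.8% in the non-LRO library, although the ratio of the gene sum was near 1 and neither transcript was called; under the scalings that raise all ratios NM_010629 was called higher. NM_010629 holds an extra exon of 66 bases near its end, exon 20 of 21, of which the first 43 bases are coding.
Kifap3 exon 20, coding part, chr1:163912072-163912114, plus strand: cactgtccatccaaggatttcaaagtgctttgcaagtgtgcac
This exon changes the end of the accessory subunit of kinesin-2.

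The lower call of Kif5a came from 1 of its 2 transcripts. NM_001039000, the 6311-base form with the longer 3' end, had 5.89 reads in the LRO and 71.8 in the non-LRO library, a 14.9-fold lower value (6.52 to 41.9). NM_008447, of 4279 bases, had 18.1 and 8.15 reads, a ratio of 1.81 (0.750 to 4.82), and was not called. The longer form thus held 24.5% of the gene's reads in the LRO and 89.8% in the non-LRO library. In Kif9, NM_001163569 had 15.8 reads in the LRO and 0.000457 in the non-LRO library and was called higher, while NM_010628 had 28.2 and 16.0 reads and was not, so the higher sum of Kif9 rested in part on a transcript read in the LRO library alone. The forms have different last exons. Of the Kifc3 transcripts, NM_001145831 and NM_010631, which share the outer start, had 0.0230 and 0.188 reads in the LRO library and 14.3 and 9.96 in the non-LRO library, and both were called lower; NM_001145832, from the inner start, had 42.8 and 38.7. Kif2c NM_001290662, which starts inside the gene, had 20.7 reads and 79.3, a 4.67-fold lower value (2.85 to 7.95), but held only 3.11% and 8.13% of the gene's reads.

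**Figure D5:**
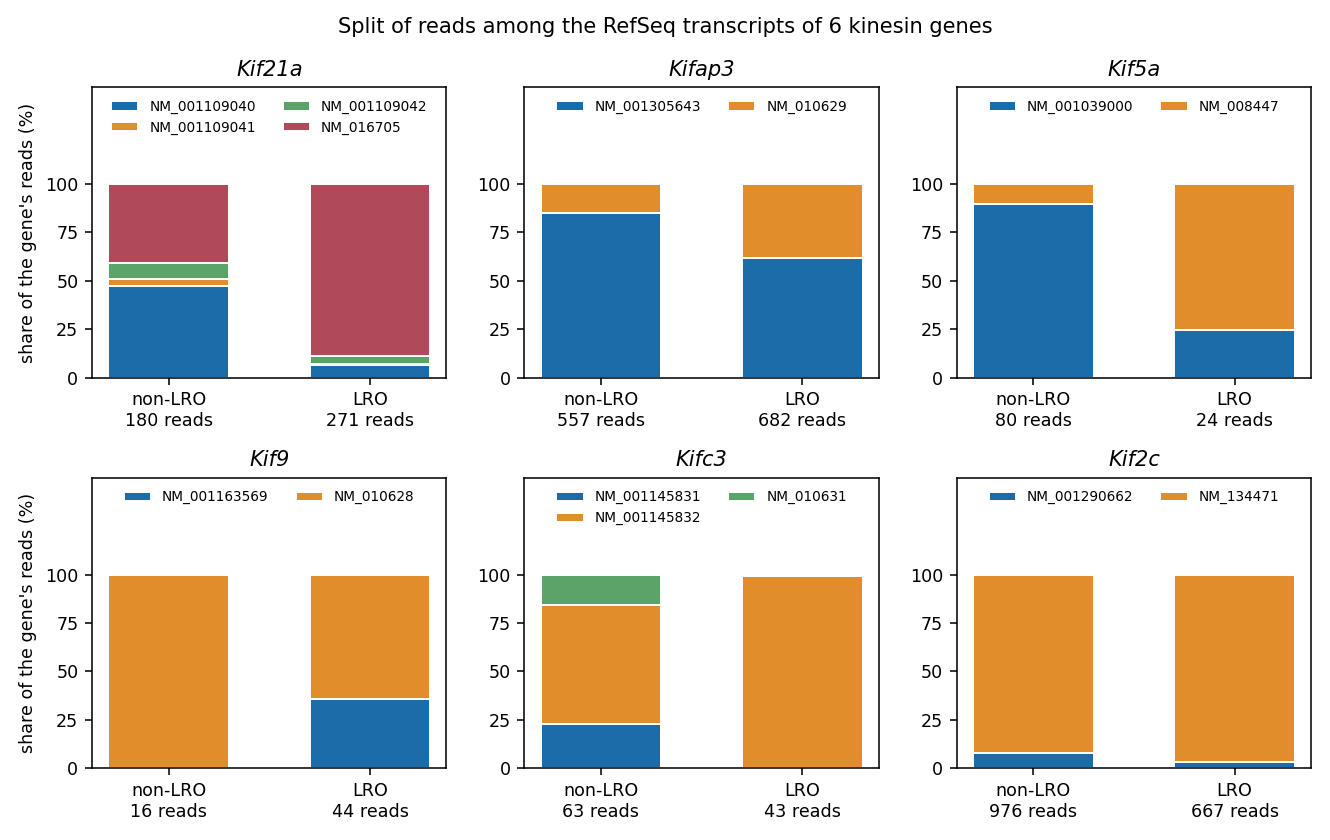
Share of each gene's reads (y axis, percent) given to each of its RefSeq transcripts (colours) in the non-LRO and LRO library, with the gene's reads under each bar; 1 library per group. From the non-LRO to the LRO bar, NM_016705 of Kif21a goes from 40.6% to 88.7%, NM_010629 of Kifap3 from 14.8% to 38.3%, and NM_001039000 of Kif5a from 89.8% to 24.5%.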

How the data were processed

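RNA was sequenced from LRO (EGFP-positive) and non-LRO (EGFP-negative) cells of FOXJ1-EGFP embryos sorted by flow cytometry, 1 library each. RNA was amplified with a kit that keeps no strand, sequenced as single reads, aligned with TopHat and quantified in Partek 6.6 against RefSeq transcripts. The authors' estimated counts per transcript, which split reads among transcripts and copies and need not be whole, and the authors' RPKM values were deposited for both libraries. The LRO column carries no sample label; it was taken as the EGFP-positive sample because it is the only other library, and the study heads the same reads that way. The 4 further per-sample columns (junction and incompatible reads) and the authors' test columns (chi-square and p-values for expression and splicing) were not used.

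Transcript counts were summed per gene symbol, rounded, and scaled to the totals behind the RPKM values (scale 1.24). Ratios have exact conditional (Clopper-Pearson) 95% intervals (scipy 1.17.1), with calls at bounds of 2 and 0.5. For log2 ratios 1 read was added on each side as a pseudocount. A detection floor of 3 reads was set but entered no ratio or call of a member. Kif19a and Kif12 lie under it in the non-LRO library. With 1 library per group no test of the conditions was made. Amplified reads are not independent molecules, so intervals cover counting error only and are too narrow. The calls were tested on simulated reads that held counting error only, the same error that the intervals assume. That simulation cannot show how the calls hold for amplified reads or between libraries. Alternatives were other scalings (edgeR 4.0.16 TMM among them), fold bounds, a 99% interval, a minimum of 50 reads, reads divided by 10, transcripts, and pseudocounts of 0.5 and 5.

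Named in full were the called members, all ciliary members, and the 3 best-read members of each other class. Members and lists were chosen with earlier results of these data known, and 1 listed marker gene is not reported here. The deposited coordinates run past the end of GRCm38 on chromosome 1 (197002910 against a last annotated gene end of 195323493), so they are of another build than the mm10 of the labels. They were used for overlaps between genes and for inner and outer transcript starts, and not for printed positions. Printed positions and sequences come from RefSeq (GRCm38.p6, promoters) and GENCODE (GRCm38, exons). Of 40 members, 7 with 1 transcript had counts off a whole number by over 0.01, among them Kif3c, Kif24 and Kif11.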

Additional observations from a re-analysis of the deposited data

How the results depend on the processing

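No paired analysis was possible because there is only 1 library per group, and for the same reason no replicate could be left out. At the main scaling well-read genes had a median log2 ratio of -0.31, and edgeR TMM factors moved it to 0.04. With TMM factors and with the median ratio of well-read genes (50 or more reads in each library), the class medians became 0.22 and 0.18 for kinesin-2, -0.10 and -0.15 for mitotic kinesins, 0.22 and 0.18 for transport kinesins, and 0.43 and 0.39 for the remaining kinesins, while that of other ciliary kinesins stayed within its interval. Under both scalings 4 of 40 kinesin genes were higher (Kif27 added) and 1 lower, and of genes in the related lists 2 were lower in place of 4. Of all genes, 6.45% were higher and 7.89% lower with TMM factors. With the median ratio of well-read genes these shares were 6.00% and 8.21%. Of all called genes, 24.4% were higher at the main scaling and 44.96% with TMM factors.

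A fold bound of 1.5 gave 4 genes higher and 5 lower (Kif5a, Kif5c, Kif2c, Kif20b and Kifc1), and a bound of 4 gave 0 and 0. Shares of all genes were not computed at these bounds, at the 99% interval or for divided reads, so those counts lack a background. With reads divided by 10, as if amplification had copied each molecule 10 times, 0 genes were higher and 0 lower. A 99% interval dropped Kif3c, and a minimum of 50 reads over both libraries dropped Kif19a from the count. Transcripts in place of gene sums gave 5 higher and 5 lower. Over the alternatives for single genes, the 4 called genes kept their call in 22 of 30 values and no called gene changed direction; Kif19a gave no ratio under the minimum of 50 reads and with reads divided by 10, where it was not called either. Scalings for transcripts and related lists were chosen after seeing the data. Depth limits the ciliary calls, since Kif19a and Kif6 had 1 and 6 reads in the non-LRO library.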
